A study of Rattus norvegicus with 35 samples.

Results

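Dab2, Cubn, Lrp2 and Amn, the adaptor and receptor genes of the endocytic route of yolk-sac endoderm, were followed in single rat converted hypoblast stem cells. The genes were chosen by name, and all 4 were among the 17198 gene rows of the deposited table. Each had a single RefSeq record there, namely NM_024159 for Dab2, NM_053332 for Cubn, NM_030827 for Lrp2 and NM_001108061 for Amn, so splice forms of a gene are not separated. The cells came from rat embryonic stem cells that were converted in medium with LIF, PDGF, EGF and fetal bovine serum and were passaged, and no genetic change is given in the labels. All libraries were made on day 12 of differentiation. They comprise 34 single cells captured on the C1 microfluidic system and 1 bulk library of the same population. The labels name no culture or batch. All cells therefore stand for 1 sample, as does the bulk, and no difference could be tested over samples.

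The 4 proteins work as 1 uptake machine. Lrp2, or megalin, is a very large membrane receptor of the LDL receptor family that binds many proteins, vitamin carriers and lipoproteins. Cubn, or cubilin, is a large peripheral receptor for intrinsic factor with vitamin B12, for apolipoprotein A-I and for albumin. It has no membrane span of its own and is carried and anchored by Amn, or amnionless. Dab2 is a cytosolic adaptor that binds the tail of megalin and links it to the AP2 complex and clathrin. In the rodent embryo the route is known from the visceral endoderm, which feeds the embryo before the placenta works. Dab2 is also a marker of the primitive endoderm at large and a known target of GATA factors.

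The stretches upstream of Cubn and Lrp2 are shown because GATA factors were measured in the same cells. They are the 250 bases before the gene start in the RefSeq promoter table (GRCr8), printed 5′ to 3′ in the direction of the gene. Capitals mark any of 4 motifs on either strand, namely AGATAA, the form TGATAA with T first, the form AGATAG with G last, and the form TGATAG with both. The Cubn stretch is chr17:81501695-81501944 (minus strand) and the Lrp2 stretch is chr3:74754536-74754785 (minus strand).
Cubn: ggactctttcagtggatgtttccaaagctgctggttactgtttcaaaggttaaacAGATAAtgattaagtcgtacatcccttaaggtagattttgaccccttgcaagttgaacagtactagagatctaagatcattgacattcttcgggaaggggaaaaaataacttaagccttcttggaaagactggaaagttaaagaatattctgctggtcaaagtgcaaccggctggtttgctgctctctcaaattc
Lrp2: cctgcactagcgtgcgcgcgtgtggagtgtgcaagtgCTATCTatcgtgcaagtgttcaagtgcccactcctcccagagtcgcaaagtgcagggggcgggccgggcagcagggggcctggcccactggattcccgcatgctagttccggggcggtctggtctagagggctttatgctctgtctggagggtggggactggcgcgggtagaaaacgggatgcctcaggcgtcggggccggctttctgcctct

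Cubn held 1 match, AGATAA, and Lrp2 held 1, AGATAG on the opposite strand. Such letters occurred in 27% of all 33469 windows of that length, and none were found in the windows of Dab2 and Amn. The window of Dab2 lies within the span of the gene in that annotation, so it need not be the start used in these cells. The letters GGGCGG, on either strand, occurred at 2 places each in the Lrp2 and Amn windows and at none in those of Cubn and Dab2, beside 30.5% of all windows. The Cubn window was 40% G or C and the Lrp2 window 64.4%. A match is a description of letters, and no binding was measured.

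Libraries differed widely in depth. Reads in genes ranged from 6288 to 503044 per cell (median 266046), with 349 to 5514 genes holding a read, and the bulk library held 47121 reads. Levels are read counts scaled to a fixed library total (CPM), and 1 read was worth 1.99 to 159 CPM in a cell and 21.2 CPM in bulk. Of the 34 cells, 22 held at least 50000 reads and 3000 genes and are called gene-rich. C94 and C88 were the shallowest. C14, C17, C30 and C46 held Col1a2, a fibrillar collagen gene, which no other cell did. C54, C74 and C95 also stood apart. They were deep (431709 to 503044 reads), but their summed level of 9 parietal endoderm markers was 698 to 3919 CPM, against 6703 to 66094 CPM in the 27 cells outside both sets, and they had no read of Lrpap1. These 3 are called cells with low parietal markers because, among the cells without Col1a2, only their sums were below 5000 CPM. In the cells with Col1a2 the sum was 2737 to 13195 CPM, so it also reached below that limit. The sum leans on Ctsl, the marker with the highest mean (10887 CPM over all cells), which was at 13.9 to 31.8 CPM in the 3 cells. C74 still held 3630 CPM of Sparc, another of the markers, above the median of 3145 CPM over all cells. C74 also held 1170 CPM of Pou5f1 and 1564 CPM of Dppa3, pluripotency genes, while C95 had no read of either. Results that rest on these 7 cells are given with and without them, a choice made after seeing the data. No transcript lengths were used here, so levels are not ranked between genes. Detection means at least 5 CPM, which every cell with a read of any of the 4 genes reached. SDs describe the spread between cells. Intervals are exact 95% intervals (Clopper-Pearson for shares, Poisson for reads), cover counting error only and take reads as independent. Among nonzero counts in cells, 66.7% were even for Dab2, 75% for Cubn, 66.7% for Lrp2 and 88.9% for Amn, so these intervals are too narrow.

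Dab2, the adaptor, was the member found in most cells. It was detected in 27 of 34 cells (79.4%, interval 62.1% to 91.3%). Its level ran from 0 through a median of 214 CPM to 2061 CPM, with a mean of 365 ± 458 CPM. In the 27 cells with the gene the median was 283 CPM. Among the gene-rich cells it was detected in 20 of 22, at 403 ± 369 CPM. Without the 7 cells that stood apart it was detected in 23 of 27, at 340 ± 331 CPM. Dab2 was therefore present in most cells either way, at levels that spread widely.

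The highest Dab2 value was in C95, with 928 reads (2061 CPM, interval 1931 to 2198). That cell held 450250 reads but only 1642 genes, and it had no read of Cubn, Lrp2 or Amn. C95 and C54 are 2 of the 3 cells with low parietal markers, and the other, C74, held 27.8 CPM. Without these 3 cells the mean of Dab2 was 297 ± 328 CPM. The highest gene-rich cells were C26 with 1354 CPM (1237 to 1479), C54 with 1107 CPM (1017 to 1203) and C40 with 911 CPM (790 to 1046). These values stand well apart from the low end of the range, where C43 held 39.8 CPM and C44 held 49.1 CPM at 301398 and 326048 reads. The spread of Dab2 thus occurred among deep, gene-rich cells as well.

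The 7 cells without Dab2 were C14, C17, C24, C30, C31, C88 and C94. They had a median of 35681 reads, against 301398 in the cells with the gene. C24 was the exception in depth, with 251251 reads and 4470 genes, and its 0 reads allow up to 11.9 CPM (3 reads). C24 did hold the receptor genes, with 28 reads of Cubn (111 CPM) and 3 of Lrp2 (11.9 CPM). C31 likewise had no Dab2 read, with a limit of 31.3 CPM, but 26 reads of Cubn (271 CPM).

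**Figure D1:**
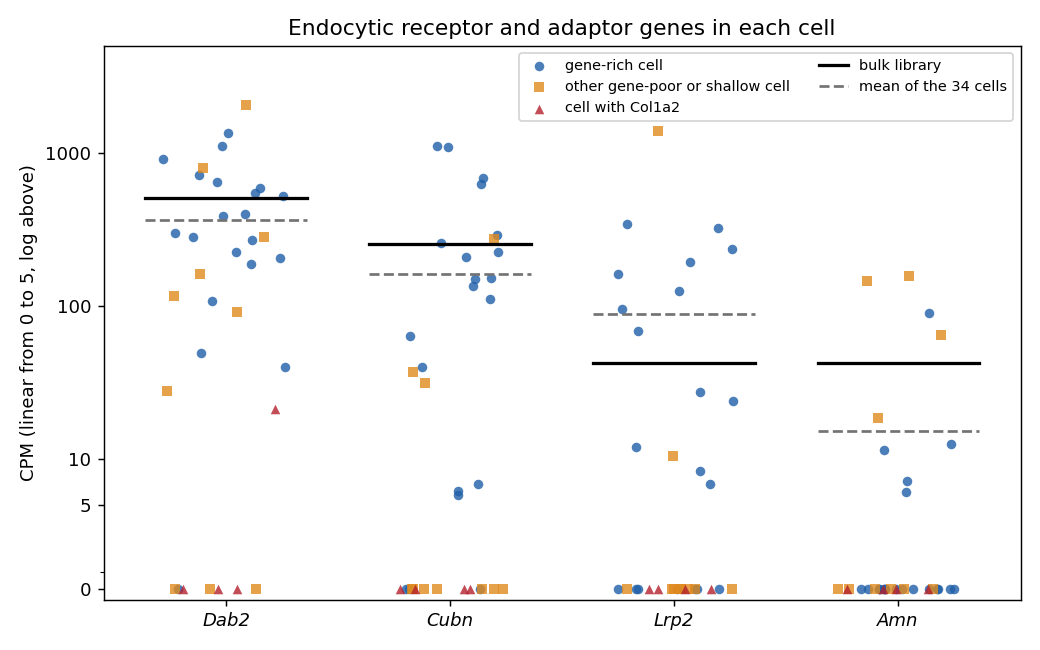
CPM of Dab2, Cubn, Lrp2 and Amn in each of 34 cells (points; linear scale from 0 to 5 CPM and log scale above), with the bulk library as a solid line and the mean of the cells as a dashed line. Circles are gene-rich cells, squares other cells with few reads or genes, and triangles the 4 cells with Col1a2 (2 of them also gene-rich), which lie at 0 for every gene but for 1 cell at 21 CPM of Dab2.

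Cubn, the receptor for the vitamin B12 complex, was detected in 20 cells (58.8%, interval 40.7% to 75.4%). Its values ran from 0 through a median of 19.1 CPM to 1115 CPM, with a mean of 162 ± 292 CPM. Among gene-rich cells it was detected in 17 of 22 at 235 ± 339 CPM. C32 and C33 held the most Cubn, with 361 reads (1115 CPM, interval 1003 to 1236) and 360 reads (1094 CPM, 984 to 1213). They were followed by C26 with 682 CPM and C72 with 623 CPM. The intervals of C32 and C33 overlap, and both lie above that of C26 (600 to 773). At the other end, C13, C44 and C80 held 2 reads each, so their values of 5.76 to 6.81 CPM are at the limit of detection.

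Lrp2, the megalin gene, was detected in 15 cells (44.1%, interval 27.2% to 62.1%), and the other 19 had none. The values ran from 0 through a median of 0 to 1392 CPM, with a mean of 88.8 ± 249 CPM. A single cell, C45, held 46.1% of this signal with 86 reads (1392 CPM, interval 1114 to 1719), and the mean was 49.3 CPM without it. C45 had 61770 reads and 2002 genes. The next cells, all gene-rich, were C27 with 340 CPM, C32 with 321 CPM, C33 with 234 CPM and C05 with 192 CPM. The counting intervals of C27 (278 to 413) and C32 (263 to 389) overlap. Among gene-rich cells Lrp2 was detected in 13 of 22 at 73.4 ± 109 CPM, and in 8 of them it was at 50 CPM or more.

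Amn, which anchors cubilin, was detected in 9 cells (26.5%, interval 12.9% to 44.4%) with 51 reads in all. The values ran from 0 through a median of 0 to 157 CPM, with a mean of 15.1 ± 39.4 CPM. The highest value, in C88, rests on 2 reads (interval 19 to 567). C40 held the most reads, 20 (90.2 CPM, 55.1 to 139), followed by C45 with 9 reads (146 CPM) and C39 with 8 reads (64.4 CPM). The mean was 5.78 CPM over the gene-rich cells and 6.33 CPM from the summed reads of all cells, so the size of the mean depends on shallow cells. Amn was thus sparse, with most of its reads in a few cells.

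Of the 4 members, Dab2 and Cubn were detected in at least 17 cells, and 17% of all gene rows were. Detection moved with depth. The cells with Cubn had a median of 304620 reads and those without 102450, and for Lrp2 the medians were 293829 and 217328. For Amn the order was the other way, with 175639 reads in the cells with the gene and 299584 in those without. After every cell with enough reads was thinned to 50000 reads, which left out 4 cells, Dab2 had a read in 27 of 30 cells, Cubn in 17, Lrp2 in 12 and Amn in 4. In the same 30 cells before thinning the numbers were 27, 20, 15 and 8. The order of the genes by number of cells was therefore the same at 1 fixed depth.

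Cells were next compared for which of the 4 genes they held together. C32, C33 and C40 held all 4 genes, 9 cells held 3, 14 held 2, 4 held 1 and 4 held none. All 3 cells with the full set were gene-rich, but in C33 Amn rests on 2 reads (6.08 CPM, interval 0.736 to 22). The largest class was the 8 cells with Dab2 and Cubn alone, followed by the 6 cells with Dab2, Cubn and Lrp2. Dab2 was detected in 18 of the 20 cells with Cubn, in 13 of the 15 with Lrp2 and in 8 of the 9 with Amn. Cubn was detected in 4 of the 9 cells with its anchor Amn, so 5 cells had reads of Amn and none of Cubn, while 16 cells had reads of Cubn and none of Amn. C33, C47, C72, C88 and C96 are among the cells with Amn on 2 reads each, so these counts are uncertain. Cubn and Lrp2 shared 11 cells.

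**Figure D2:**
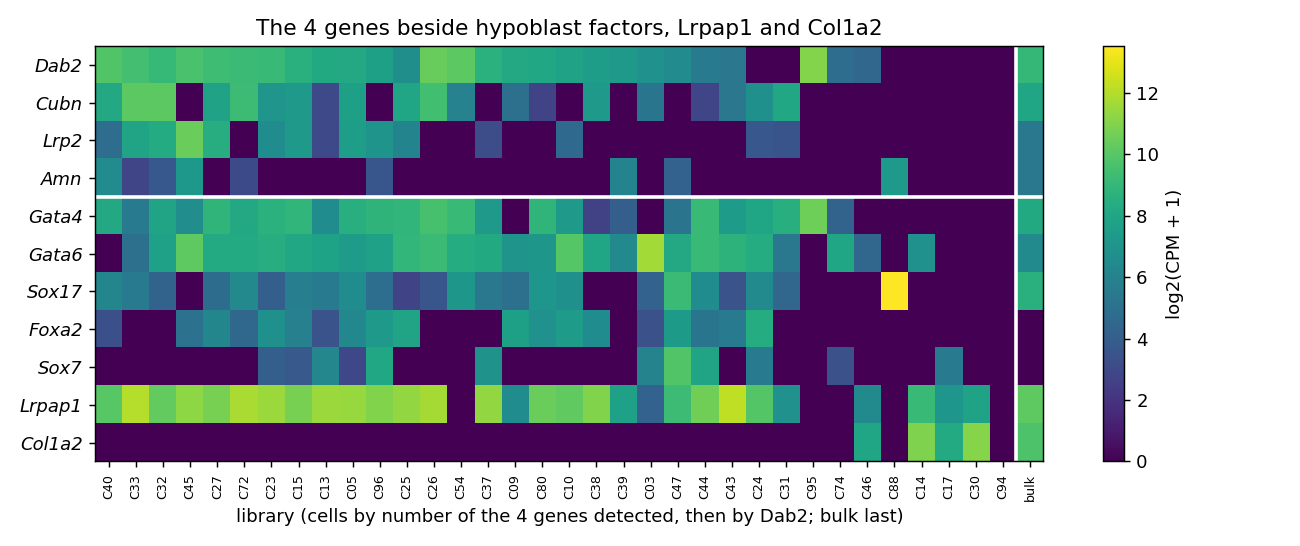
Level of the 4 genes (top rows), of 5 hypoblast factors, of Lrpap1 and of Col1a2 as log2(CPM + 1) in each cell and in bulk (last column). Cells run from left to right by number of the 4 genes detected and then by Dab2, with the 3 cells holding all 4 genes on the left and the 4 holding none (C14, C17, C30 and C94) beside the bulk.

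The levels of Dab2 and Cubn also went together over the gene-rich cells. Spearman's rho of log2(CPM + 1) was 0.59 over these 22 cells, and Cubn was the 10th most similar gene to Dab2 among 2923 genes detected in at least 17 cells. It was also 0.59 over the 19 gene-rich cells left without C17, C46 and C54. Over all 34 cells the rho was 0.44, and without the 4 cells with Col1a2 it was 0.34. Other pairs of members had rhos of 0.29 (Dab2 and Lrp2) to 0.43 (Cubn and Amn) in the gene-rich cells. The cells come from 1 population and differ in depth, so these values describe the cells and carry no test. Dab2 itself had a rho of 0.51 with total reads over all cells, of 0.27 over the gene-rich cells and of −0.11 over those 19.

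The genes most like Dab2 over the 22 gene-rich cells were Tkt (rho 0.77), which encodes transketolase, Pgam5 (0.76), a mitochondrial phosphatase gene, Api5 (0.69), Hsdl2 (0.66) and Rabggtb (0.65), a subunit gene of the enzyme that prenylates Rab proteins. C1h11orf98 (0.61), NM_001014151, Ndufs1 and Mterf3 (0.6 each) and Cubn completed the 10. The median rho over the 2923 genes was 0.02, and 41 genes reached 0.5. For Cubn the leading genes were NM_001014151 (0.74), Ssr1 (0.72), Polr2k (0.7), Tgm1 (0.68) and Furin (0.67). Mesd (0.65), a chaperone gene of LDL receptor family proteins, Cdkn2aipnl (0.64), and Scd and Smarca5 (0.62 each) followed. For Lrp2 they were Klf5 (0.8), Coa7 (0.73), Kpnb1 (0.71), Plpp5 (0.7), Uso1 (0.69), Mphosph6 and B4galt6 (0.68 each), Ufc1 (0.66), and Psmd6 and Pttg1 (0.64 each). NM_001014151, a record with no matched symbol, was on the lists of Dab2 and Cubn. Over the 19 cells without C17, C46 and C54 the rhos of Tkt, Pgam5 and Mterf3 with Dab2 were 0.68, 0.68 and 0.66, and that of Klf5 with Lrp2 was 0.73. The lowest rho of any gene with Dab2 over the 22 cells was −0.71, a size close to that of the highest.

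Hypoblast transcription factors were set beside the members because Dab2 is a known GATA target. Gata4 was detected in 26 cells and Gata6 in 28. Of the 27 cells with Dab2, 24 held Gata4, 25 held Gata6 and 21 held Sox17. All 15 cells with Lrp2 held Gata4. The rho of Dab2 with Gata4 was 0.56 over all cells, 0.43 without the cells with Col1a2 and 0.36 over the gene-rich cells. It was 0.46 over the 31 cells without C54, C74 and C95, 0.27 over the 27 cells without both sets that stood apart, and 0.06 over the 19 gene-rich cells among these, so its size depends on which cells enter. C95 and C26, the cells with the most Dab2, also held the most Gata4, at 1512 and 757 CPM. With Gata6 the rho was 0.26 over all cells, 0.02 over the gene-rich cells and −0.29 over those 19. C40 held 911 CPM of Dab2 and no read of Gata6.

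**Figure D3:**
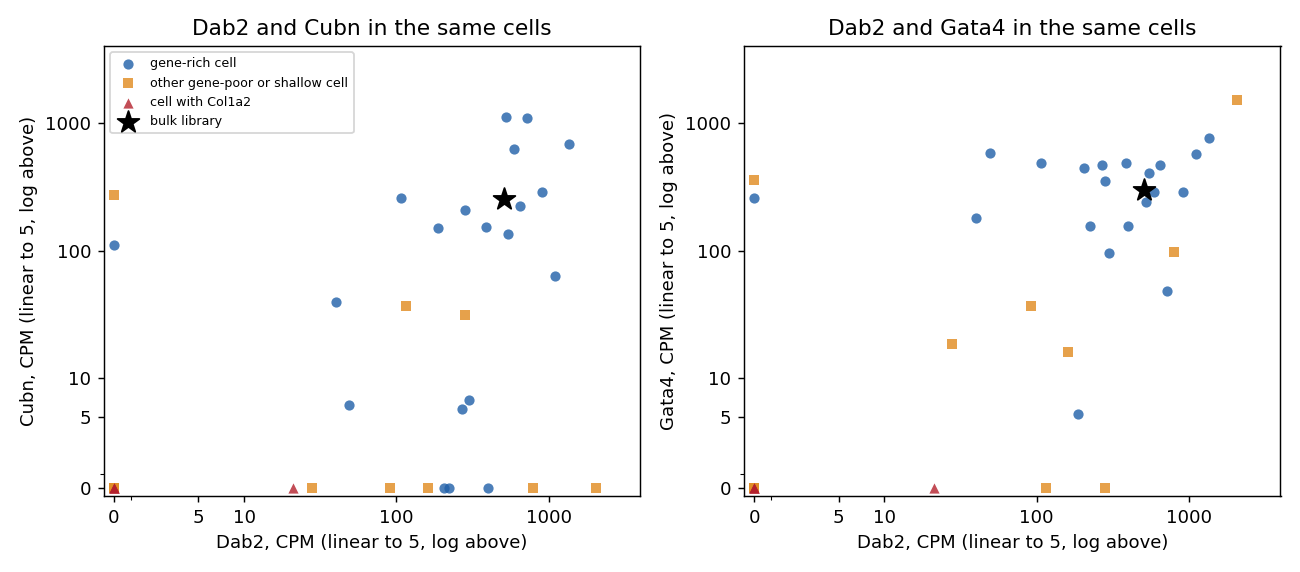
Dab2 against Cubn (left) and against Gata4 (right) in each cell, in CPM (linear scale to 5, log scale above), with the bulk library as a star; symbols mark gene-rich cells, other cells with few reads or genes, and cells with Col1a2. C14, C17 and C30 overlie one another at 0 on both axes, and the gene-rich cells C26 and C54 lie at the right in both panels.

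Foxa2 and Sox7, endoderm factors found in fewer cells, gave negative rhos with Dab2 and Cubn over the gene-rich cells and not with Lrp2. Over the gene-rich cells Dab2 had a rho of −0.4 with Foxa2 and −0.34 with Sox7, and Cubn had −0.14 with Foxa2 and −0.49 with Sox7. Lrp2 had 0.21 with Foxa2 and 0.07 with Sox7. Dab2 in the 7 gene-rich cells without Foxa2 had a lowest value of 0, a median of 525 and a highest of 1354 CPM. In the 15 with Foxa2 the lowest was 0, the median 268 and the highest 911 CPM. The Cubn medians went the other way, at 134 CPM in the 15 with Foxa2 and 63.6 CPM in the 7 without. With C17, C46 and C54 left out they were 134 CPM in 15 cells and 888 CPM in 4. For Cubn the medians were 224 CPM in the 13 gene-rich cells without Sox7 and 6.81 CPM in the 9 with it, and the highest values were 1115 and 208 CPM. Without C17, C46 and C54 these medians were 256 CPM in 11 cells and 59.1 CPM in 8. The ranges overlapped in each case. Over the 19 gene-rich cells without C17, C46 and C54 the rho was −0.65 for Dab2 with Foxa2, −0.32 for Dab2 with Sox7 and −0.58 for Cubn with Sox7. There the 4 cells without Foxa2 held 399 to 1354 CPM of Dab2 and the 15 with it 0 to 911 CPM. Over all 34 cells the rho of Dab2 was 0.04 with Foxa2 and −0.15 with Sox7. That of Cubn was 0.15 with Foxa2 and −0.21 with Sox7. The sign with Foxa2 thus holds in the gene-rich cells and not in all, for both genes.

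The 4 cells with Col1a2 held almost none of the 4 genes. C46 had 2 reads of Dab2 (21 CPM, interval 2.54 to 75.8), and C14, C17 and C30 had none. Cubn, Lrp2 and Amn had 0 reads in all 4 cells, which together held 223362 reads, a limit of 13.4 CPM for a gene with no read. Pooled, Dab2 stood at 8.95 CPM (interval 1.08 to 32.3) there, and its mean over the other 30 cells was 413 ± 467 CPM. The same 4 cells also had no read of Gata4, but 2 of 8 hypoblast factors were detected among them. Gata6 was in C14 (4 reads, 112 CPM) and C46 (2 reads, 21 CPM), and Sox7 was in C17 (3 reads, 46.1 CPM). Among the 4 cells 7 of 8 fibroblast markers were detected, with a summed level of 938 to 4736 CPM per cell. In the other cells 4 were detected, at 0 to 776 CPM. This list includes Col1a2, by which the 4 cells were set apart, so part of the gap was fixed by that choice. Of 9 parietal endoderm markers, 8 were also detected among the 4 cells. Their sum was 2737 to 13195 CPM per cell, against 698 to 66094 CPM in the other cells. The 4 cells held 27284 to 95359 reads. Cltc, the clathrin heavy chain gene, was at 769 to 1833 CPM in these cells and Lrpap1 at 83.9 to 561 CPM, so other genes of the route were measured there. The part of depth and of cell type in this absence was not tested.

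The label of yolk-sac endoderm was checked against marker genes. Parietal endoderm markers were detected widely: 8 of 9 measured were in at least 17 cells, among them Sparc (33 cells), Col4a1 (32) and Lama1 (30). Of 11 visceral endoderm markers, Cubn alone reached that number, and 17% of all gene rows did. Ttr, Apoa1, Apob and Rbp4 had 0 reads in all cells and Afp had 1. The cells with the most Cubn differed in these markers. C33 held the single Apoa4 signal, 38 reads (115 CPM, interval 81.7 to 158), with 14 reads of Hnf4a (42.5 CPM) and 13 of Tf (39.5 CPM), the transferrin gene. It also held the most Ctsl, a lysosomal cathepsin gene, at 47242 CPM. C32, with as much Cubn, had no read of Hnf4a, Apoa4 or Tf, but it held 18.5 CPM of Apom, of which C33 had no read. Tf is not among the 11 markers. Of those that are, Apom was detected in 3 cells, up to 81.2 CPM in C05. Ihh was detected in 5 cells, up to 235 CPM in C03. Visceral markers other than Cubn and Amn were thus found in few cells.

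The wider route was described by lists. Among partners and adaptors, 2 of 10 measured genes were detected in at least 17 cells, beside 17% of all rows. Lrpap1, the chaperone that keeps megalin free of ligand on its way to the surface, was in 29 cells at 1434 ± 1363 CPM, and Snx17, a sorting nexin gene, in 19 at 33 ± 50.8 CPM. Gipc1, whose product binds the tail of megalin, was in 12 cells, and Numb, an endocytic adaptor gene, in 7. Clcn5, an endosomal chloride transporter gene, was in 9 cells and Dab1, the neural relative of Dab2, had 0 reads. Of the adaptor genes Dab2, Dab1, Gipc1 and Numb, Dab2 was found in the most cells, and Lrpap1 was found in more cells than any of the 4 members.

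Of 20 measured genes of clathrin and the AP2 complex, 8 reached 17 cells, beside 17% of all rows. Ap2m1, the AP2 subunit that reads sorting signals, was detected in 31 cells at 1395 ± 1249 CPM, Cltc in 33 at 1005 ± 881 CPM and Hip1, which links clathrin coats to actin, in 29 at 237 ± 266 CPM. Clta (28 cells), Ap2s1 (19), Itsn1 and Gak (18 each) and Cltb (17) followed. C94, the shallowest cell, held 87% of the Cltb signal and 54% of that of Clta, and their means without it were 30.4 and 82 CPM. Dnm2, the dynamin that cuts coated vesicles free, was in 14 cells.

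Endosomal genes came next, with 9 of 19 in at least 17 cells. The retromer genes Vps35 and Vps29 were in 29 cells each (463 ± 386 and 276 ± 223 CPM) and Vps26a in 21. Rab7a, the late endosome GTPase, was in 28 cells at 543 ± 598 CPM, Snx2 and Rab11b were in 28 each, Rab11a, of recycling endosomes, in 24, Ehd1 in 23 and Snx1 in 17. The early endosome GTPase genes were found less widely, with Rab5b in 14 cells, Rab5a in 11 and Rab5c in 10. Over these lists and the other receptors, 21 of 68 measured genes (30.9%) were in at least 17 cells, beside the 17% of all rows. In the 27 cells outside the sets that stood apart, 23 of these genes were in at least 14 cells, beside 18.6% of all rows, and in the 22 gene-rich cells 33 were in at least 11, beside 24% of all rows.

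Of 19 other endocytic receptors measured, 2 reached 17 cells, beside 17% of all rows. They were M6pr, a mannose 6-phosphate receptor that sends hydrolases to lysosomes (25 cells, 243 ± 300 CPM), and Tfrc, the transferrin receptor (19 cells, 70.7 ± 125 CPM). Within the LDL receptor family and its relatives, Lrp6 was in 16 cells, with 70.8% of its signal in C74, Lrp1 in 6, Lrp4 and Lrp11 in 5 each and Lrp5 in 3, while Vldlr, Sort1 and Sorl1 had 0 reads in the cells. Igf2r, which takes up IGF2, was in 11 cells and Scarb2, a lysosomal membrane protein gene, in 14. Beside these Lrp genes, Lrp2 was in 15 cells. Folr1, a folate receptor gene, was in 4 cells and Fcgrt, the neonatal Fc receptor gene, had 0 reads.

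**Figure D4:**
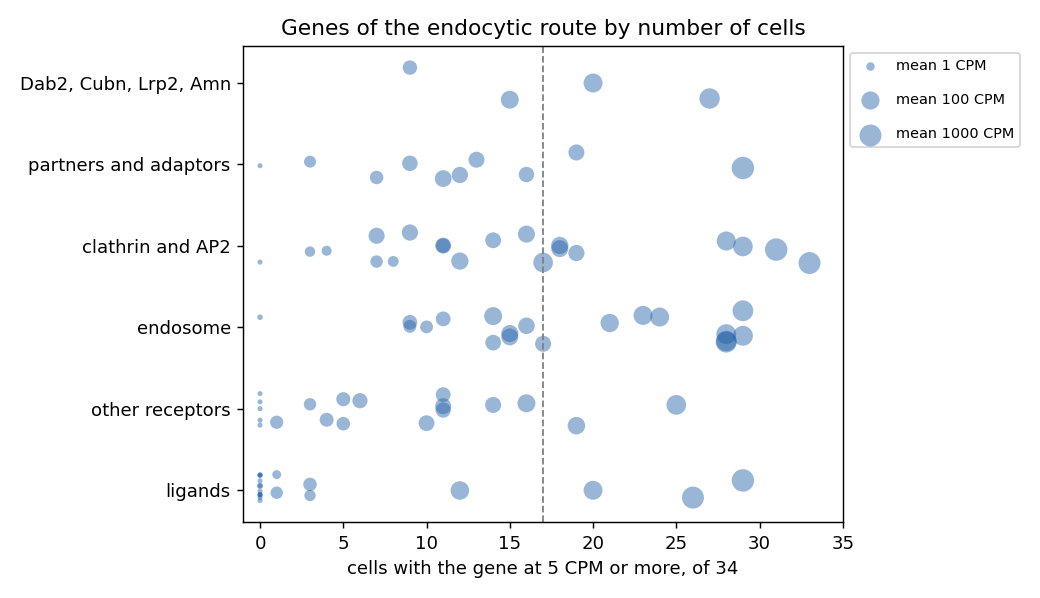
Number of cells, of 34, with each measured gene at 5 CPM or more (horizontal axis), by list (vertical position within a list is arbitrary); point area grows with the mean CPM over cells and the dashed line marks 17 cells. Clathrin, AP2 and endosome genes reach up to 33 cells, while 12 of the 20 ligand genes lie at 0.

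Ligands of megalin and cubilin were looked for in the cells themselves. Of 20 listed, 3 were in at least 17 cells, beside 17% of all rows. They were Lrpap1, Apoe (26 cells, 1032 ± 1101 CPM) and Clu (20 cells, 152 ± 257 CPM). Lpl, the lipoprotein lipase gene, was in 3 cells. Tcn2, which carries vitamin B12 in blood, was in 12 cells, with 65.2% of its signal in C47. Of the rest, 11 listed genes had 0 reads in all cells, among them Gc and Rbp4, the carriers of vitamins D and A, Cblif, which encodes intrinsic factor, Alb and Apoa1. The interval of 0 of 34 cells reaches 10.3% of cells with detection. Among signalling partners of Dab2, Itgb1 was in 27 cells, Grb2 in 21, Smad2 in 17, Sos1 in 10, and Tgfbr2 in 4.

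The bulk library held all 4 genes. In bulk, fewer cells with a gene and less of its RNA per cell cannot be told apart. It had 24 reads of Dab2 (509 CPM, interval 326 to 758), 12 of Cubn (255 CPM, 132 to 445), 2 of Lrp2 and 2 of Amn (42.4 CPM each, 5.14 to 153). For Dab2 the bulk stood at 1.4 times the mean of the cells (interval 0.895 to 2.08), and for Cubn at 1.57 times (0.813 to 2.75). Only the counting error of the bulk enters these intervals, and both include 1. Of the 34 cells, 10 lay above the bulk level for Dab2, 7 for Cubn, 9 for Lrp2 and 4 for Amn.

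For Lrp2 the cells' mean was 2.09-fold the bulk (interval 0.579 to 17.3), and 1.16-fold without C45. For Amn the bulk was 2.82-fold the cells' mean (0.341 to 10.2). On log2(CPM + 1), Lrp2 was past 2-fold in favour of the cells, as were 53.4% of the 9023 rows compared, and Amn past 2-fold in favour of the bulk, as were 21.9%. Each rests on 2 bulk reads, and both intervals include 1. Dab2 and Cubn, at log2 values of −0.48 and −0.65, were not past 2-fold. The bulk also contains Col1a2 at 40 reads, and the share of Col1a2 cells in it was not measured.

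Other genes of the route, chosen after their values were seen, were compared in the same way. Lrpap1 in the cells was 1.25-fold the bulk (interval 0.959 to 1.67), Ap2m1 1.17-fold (0.904 to 1.55) and Cltc 1.13-fold (0.834 to 1.56), and each interval includes 1. The cells held 2.56-fold more Rab7a than bulk (1.39 to 5.34, from 10 bulk reads), and 22 cells lay above the bulk level. Hip1 was 1.97-fold higher in bulk (1.23 to 2.98, 22 reads) and M6pr 1.92-fold (1.2 to 2.91, 22 reads). Dnm2 was 8.7-fold higher in bulk (4.49 to 15.2, 12 reads). Its highest cell, C43, held 249 CPM, within the counting interval of the bulk level (255 CPM, 132 to 445). Apoe was 3.02-fold higher in bulk (2.55 to 3.55, 147 reads). The bulk counts of these genes other than Apoe were all even, so the intervals are too narrow. They also leave out the error of the cells' mean. That the intervals of Hip1 and M6pr exclude 1 is therefore uncertain. With 1 library on each side these values compare libraries and have no replicate check.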

How the data were processed

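Messenger RNA of 34 single cells and 1 bulk library was measured after capture on the C1 system, with Nextera XT libraries, per the labels' protocols. The authors deposited 1 table of whole-number read counts, with a row for each RefSeq record. TopHat2 and rn5 are named in the submitters' processing notes; for the read counter and annotation, nothing is given in the sources used here. No molecular identifiers and no strand are mentioned, so copies of 1 molecule count as several reads and antisense reads cannot be told apart. Of 17201 records, 16209 matched a symbol by accession in a RefSeq table (GRCr8), used for names only; the other 992 held 4.14% of reads and stayed in the totals. All columns were matched to samples by title.

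Counts were divided by library totals (CPM) in Python 3.11.15, with pandas 2.3.3 and scipy 1.17.1. Alternative scalings came from edgeR 4.0.16 and DESeq2 1.42.0. No cell was removed, no doublet caller was run on 34 cells, and none of the 561 cell pairs was identical. Ratios used a pseudocount of 1 CPM for calls. The floor for 0 reads is 3 reads. Functions across genes were tested on simulated data. Members and lists were chosen with earlier results of these data known. The genes named were the members, the list genes found in at least 17 cells, the 4 of each list with the highest mean whose top cell held at most 50% of the signal, and the 10 genes most similar to a member by Spearman's rho over gene-rich cells, for members in at least 10 cells; other cells and genes singled out were chosen after their values were seen. Levels per coding length were planned and not computed, since no lengths were used here. Some list genes are not reported here by name; the counts over lists include them.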

Additional observations from a re-analysis of the deposited data

How the results depend on the processing

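Of 98 alternative values, 85 kept their direction and stayed within the spread of cells or the counting interval, 12 moved beyond it and 1 reversed. For each of the 4 genes the SD over cells was larger than the mean, so a lower mean could not fall outside it. The count of 85 is therefore no measure of stability. The mean of Amn counted as kept at 5.78 CPM against 15.1 CPM, and that of Lrp2 at 49.3 against 88.8 CPM. Using the cells' median rather than their mean, the log2 ratio of cells to bulk was −1.25 for Dab2, −3.67 for Cubn and −5.44 for Amn, and for Lrp2 it reversed from 1.05 to −5.44, because the median cell held no read of Lrp2 or Amn. At 50 CPM, Lrp2 was in 26.5% and Amn in 11.8% of cells, and 13 in place of 21 endocytic list genes were in at least 17 cells. In the gene-rich cells Cubn was in 77.3%, 33 list genes were in at least 11 of the 22 cells (as were 24% of all rows), and the rho of Dab2 was 0.36 with Gata4 and 0.02 with Gata6. The rho of Dab2 with Cubn was 0.44 over all cells and 0.34 without the cells with Col1a2. Without C54, C74 and C95 the mean of Dab2 was 297 CPM and its log2 ratio −0.78. Leaving out cells with Col1a2, the 3 cells with low parietal markers, the highest cell or Rn45s from totals, and the 11-cell count, were alternatives chosen after seeing the data. No paired analysis was possible because 1 population gave all cells and the bulk. Depth limits Amn and Lrp2 most, at 2 bulk reads each.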

Other observations

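Values chosen after they were seen are given here without a test. C24, a gene-rich cell with no read of Dab2 and no Col1a2, held the highest Foxa2 level of any cell, 326 CPM. C54, C74 and C95, the cells with low parietal markers, held Ap2m1 at 4119, 4417 and 4653 CPM, the highest level of that AP2 subunit gene being in C95, while Lrpap1 had no read in them (limits of 5.96 to 6.95 CPM). C26, the gene-rich cell with the most Dab2, held 3346 CPM of Lrpap1. The rho of Dab2 with Lrpap1 was 0.41 over all 34 cells, 0.26 over the 22 gene-rich cells and 0.24 over the 19 of these without C17, C46 and C54.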
